A study of Homo sapiens with 38 samples.

Results

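5S and 5.8S rRNA, the small RNAs of the large ribosomal subunit, were followed through the material that DiFi cells release into their medium. The members are the entries of the small RNA count table that belong to the rRNA class and are named RNA5S1, RNA5S9, RNA5SP150 or 5_8S_rRNA, together with the 5.8S reference RNA. This rule found 10 of 22549 features, 3 for 5S and 7 for 5.8S. The entry 5_8S_rRNA (750555 counts over all libraries, called the lead 5.8S entry) and the entry RNA5S1 (333281 counts, the lead 5S entry) held 95.9% of the members' counts. All 10 members held 2.94% of the counts of the 28 rRNA entries, nearly all of the rest being 28S and 18S. The table holds 14 other 5S copies outside the rule, with 1328.6 counts together.

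DiFi is an established human colorectal cancer line, and the only cell source here. Its medium came from flat culture (2D, 3 pools of 1360 mL, 48 h without serum) or from a hollow-fibre bioreactor (3D, 4 pools of about 400 mL, used in 60 mL aliquots), and all of it was passed through a 0.22 µm filter. Ultracentrifugation (UC) gave small extracellular vesicles (sEV, pelleted at 167000g for 4 h), exomeres (167000g for 16 h) and supermeres (367000g for 16 h), the last named being non-vesicular particles like exomeres. Each of these 3 fractions had 3 libraries from 2D and 3 from 3D medium. From 3D medium, liquid chromatography (FPLC) gave exomeres and supermeres, and a cushioned density gradient gave the pooled fractions 6_7, 9_10 and 12, each with 4 libraries. The labels do not say which gradient pool holds vesicles, so the pools keep their numbers. All RNA had been treated with AlkB, an enzyme that removes methyl groups that stop reverse transcription, before small RNA libraries were made. Libraries carry letters (A to D) that the labels do not tie to medium pools, and nothing says that the libraries of a group came from separate cultures. The p-values therefore speak of the spread among libraries, which may be technical.

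Of the 38 libraries, 3D UC supermere A held 46 counts, 0 of them from the members, and was left out. The other 37 held 81079 to 16991360 counts, with the shallowest in gradient 9_10 (81079 to 490374). The 6 intestinal epithelial miRNAs used as markers were detected in every group and summed to 45.5 to 137999 counts per 1000000 counts of a library (CPM). Summed markers of other cell types reached at most 8.25 CPM for blood cells, 56.0 for liver, 95.9 for mesenchyme and muscle, and 61.7 for endothelium. CPM is a share of a library, so more of an rRNA and less of other RNA cannot be told apart, nor can fewer particles and less RNA per particle.

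In cells, 5.8S rRNA is cut from the same RNA polymerase I precursor as 18S and 28S rRNA, and it stays base-paired to 28S in the large subunit. 5S rRNA is made separately, by RNA polymerase III from a promoter inside the gene, and joins the large subunit together with the proteins RPL5 and RPL11. 18S rRNA belongs to the small subunit. An intact large subunit holds 1 copy each of 5S, 5.8S and 28S rRNA, so the levels of these RNAs relative to each other describe which parts of the ribosome's RNA reach the sequenced pool. The libraries read short RNA, so counts of 28S come from fragments of it.

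The lead 5.8S sequence and that of the 5.8S-like entry with the high levels in gradient 12 are shown, because the counts are divided among similar copies. Sequences are the RNA strand of GRCh38 in DNA letters, 5′ to 3′, and capitals mark bases that differ from the lead. The lead 5.8S entry stands for 4 identical gene copies on chromosome 21, one of them at chr21:8256781-8256933 on the plus strand (153 bases).
5_8S_rRNA: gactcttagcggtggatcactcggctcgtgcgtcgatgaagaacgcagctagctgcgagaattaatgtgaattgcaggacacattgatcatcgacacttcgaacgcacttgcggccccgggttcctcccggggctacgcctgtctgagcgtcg
ENSG00000283568 is a 5.8S-like entry at chr20:29297095-29297246 on the minus strand (152 bases), with 19 substitutions and 1 deleted base against the lead.
ENSG00000283568: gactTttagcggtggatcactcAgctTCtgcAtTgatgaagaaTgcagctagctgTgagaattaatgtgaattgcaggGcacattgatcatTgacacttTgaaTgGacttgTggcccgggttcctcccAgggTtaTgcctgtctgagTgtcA
The likeness of the copies sets how far reads can be told apart. The lead 5S entry stands for 16 identical copies in the 5S gene cluster on chromosome 1, which also holds RNA5S9, and RNA5SP150 is a more diverged copy on chromosome 3. RNA5S9 shared 73.7% of its 25-base words with RNA5S1 and RNA5SP150 shared 48.4%, so their counts are uncertain as single genes. ENSG00000283568 shared 0 of its 128 words of that length with the lead 5.8S, and its identity to it was 86.9%. Only exact words were compared, and between positions 56 and 92 of the lead only position 79 differed. Reads from that stretch could fit both entries if a mismatch was allowed. The counts of ENSG00000283568 were not whole in 23 of 37 libraries, so its level may include reads shared with other entries. The other 4 chromosomal 5.8S-like entries are ENSG00000283291 (chr20:29741510-29741661), ENSG00000275877 (chr20:30484925-30485076), ENSG00000283274 (chr14:16057472-16057622) and ENSG00000276871 (chr22:11249809-11249959). The last 2 shared 80.3% of their words and had the same count within 0.01 in 33 of 37 libraries, so they are a single measurement in practice. The 5.8S reference RNA is a whole transcript of 156 bases with no genome position of its own in the table. Its counts were whole in all 37 libraries, while those of the lead 5.8S were not whole in 32 of 37. How reads were divided between these entries is not known, so zeros and folds of the reference entry need not reflect levels of 5.8S rRNA.

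5.8S rRNA was most abundant in sEV pellets and least abundant in supermeres. Its lead entry stood at 13382, 11706 and 16337.5 CPM in 2D UC sEV libraries A to C. It stood at 448, 299.6 and 256 CPM in 2D UC exomeres and at 272, 291 and 142 CPM in 2D UC supermeres. The sEV libraries were all far above both particle pellets, and those pellets overlapped each other. In 3D medium the values were 3141, 13677 and 11049 CPM in UC sEV, 764, 568 and 584 CPM in UC exomeres, and 54.5 and 75.9 CPM in UC supermeres B and C. The 3D sEV libraries were again all higher, although library A lay well below B and C, and the 3D exomeres lay above the supermeres without overlap.

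Among the other isolations of 3D medium, 5.8S was high in FPLC exomeres and low in FPLC supermeres. FPLC exomeres held 2098, 3378, 2913 and 2796 CPM of the lead 5.8S entry, and FPLC supermeres held 21.0, 63.9, 33.9 and 294 CPM. Supermere library D was far above the other 3 but still below every exomere library, and libraries A and C lay below both 3D UC supermeres. The gradient pools held 3319, 1807, 4562 and 3684 CPM in 6_7, 3582, 4259, 4137 and 2912 CPM in 9_10, and 1231, 2537, 1354 and 943 CPM in 12. Pools 6_7 and 9_10 overlapped fully, while pool 12 lay below all of 9_10 and overlapped 6_7 through its library B. Ranked by group mean, the order ran from 2D UC sEV (13809 ± 2345 CPM, SD, n = 3) and 3D UC sEV (9289 ± 5484, n = 3) down to FPLC supermeres (103 ± 129, n = 4) and 3D UC supermeres (65.2 ± 15.1, n = 2), a 212-fold range. Without library D the mean of FPLC supermeres was 39.6 CPM, the lowest of the groups. Neighbours in this order overlapped except at 2 steps, gradient 12 over 3D UC exomeres and 3D over 2D UC exomeres.

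5S rRNA followed the same broad order with a different leader. RNA5S1 stood at 3052, 2418 and 4717 CPM in 2D UC sEV, 181, 108 and 113 CPM in 2D UC exomeres, and 111, 172 and 89.2 CPM in 2D UC supermeres. The 2D sEV libraries were all above the particle pellets, by less than for 5.8S. In 3D UC, sEV libraries held 2128, 17260 and 9545 CPM, exomeres 226, 238 and 505 CPM, and supermeres B and C 42.3 and 86.4 CPM. Library A was again the lowest of the 3D sEV libraries and lay below all 3 libraries of 2D UC sEV, while B and C lay above them.

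In the other isolations of 3D medium 5S was low in FPLC supermeres and gradient 12. FPLC exomeres held 5233, 2089, 1430 and 1671 CPM of RNA5S1, with library A far above the rest, and FPLC supermeres held 23.1, 85.9, 84.2 and 144 CPM. Gradient 6_7 held 4211, 1986, 4645 and 4412 CPM, 9_10 held 4283, 4069, 4374 and 3427 CPM, and 12 held 456, 313, 1002 and 398 CPM. Every library of pool 12 was below every library of the other pools. By group mean, 3D UC sEV (9644 ± 7567 CPM, SD, n = 3) came first, gradient 9_10 (4038 ± 427, n = 4), gradient 6_7 (3814 ± 1231, n = 4) and 2D UC sEV (3396 ± 1187, n = 3) followed, and 3D UC supermeres (64.4 ± 31.2, n = 2) came last, 149.8-fold below the first. The order held 2 steps without overlap, FPLC exomeres over gradient 12 and 3D over 2D UC exomeres.

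**Figure D1:**
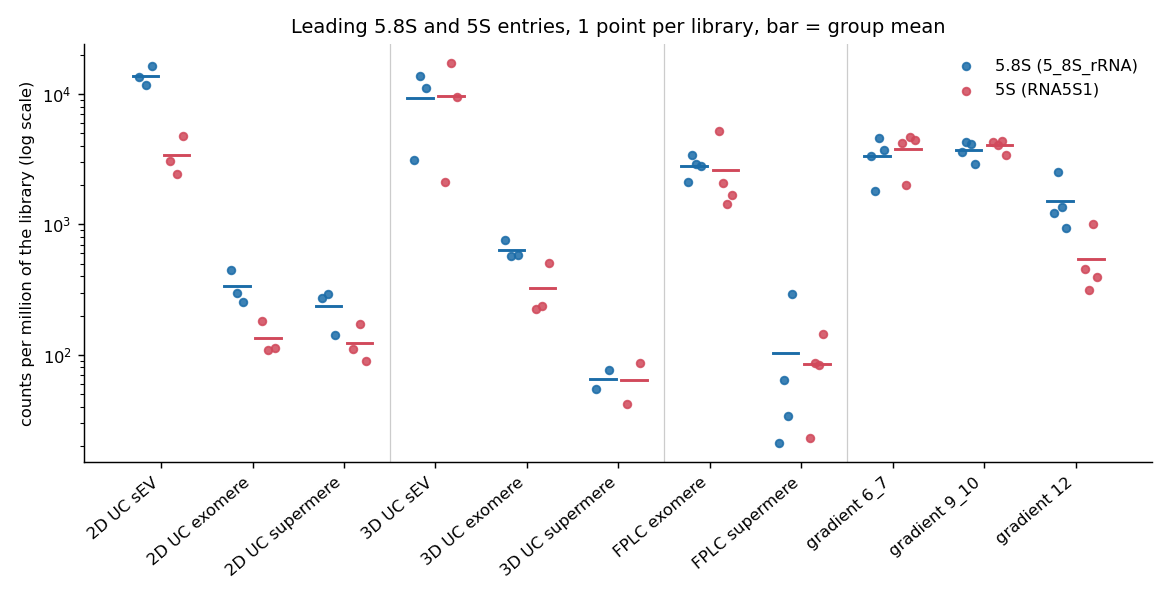
Levels of the lead 5.8S entry and the lead 5S entry in each of the 37 libraries (1 point each), in CPM on a log axis, by group, with the group mean drawn as a bar. The group means of 5.8S are highest in the 2D and 3D sEV pellets, that of 5S is highest in 3D sEV, and both are lowest in FPLC and 3D UC supermeres.

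The minor 5S entries stood at a few percent of their lead in every group. RNA5S9 stood at a mean of 2.43% to 6.42% of RNA5S1 over the 11 groups. RNA5SP150, which diverges more, stood at 0.895% to 3.26%, with its highest group mean in gradient 6_7 (127 ± 51.3 CPM, n = 4). The 5.8S reference entry departed from its lead. It stood at 438, 344 and 649 CPM in 2D UC sEV, but had 0 counts in all 3 libraries of 3D UC exomeres, where the lead 5.8S held 568 to 764 CPM. In 2D UC exomeres it had 75 counts in library C and 0 in A and B. The 4 remaining 5.8S-like entries were rare: ENSG00000283291 reached a group mean of 27.5 CPM and ENSG00000283274 and ENSG00000276871 reached 20.5 CPM, all in gradient 9_10, and ENSG00000275877 reached 5.54 CPM in 3D UC sEV.

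**Figure D2:**
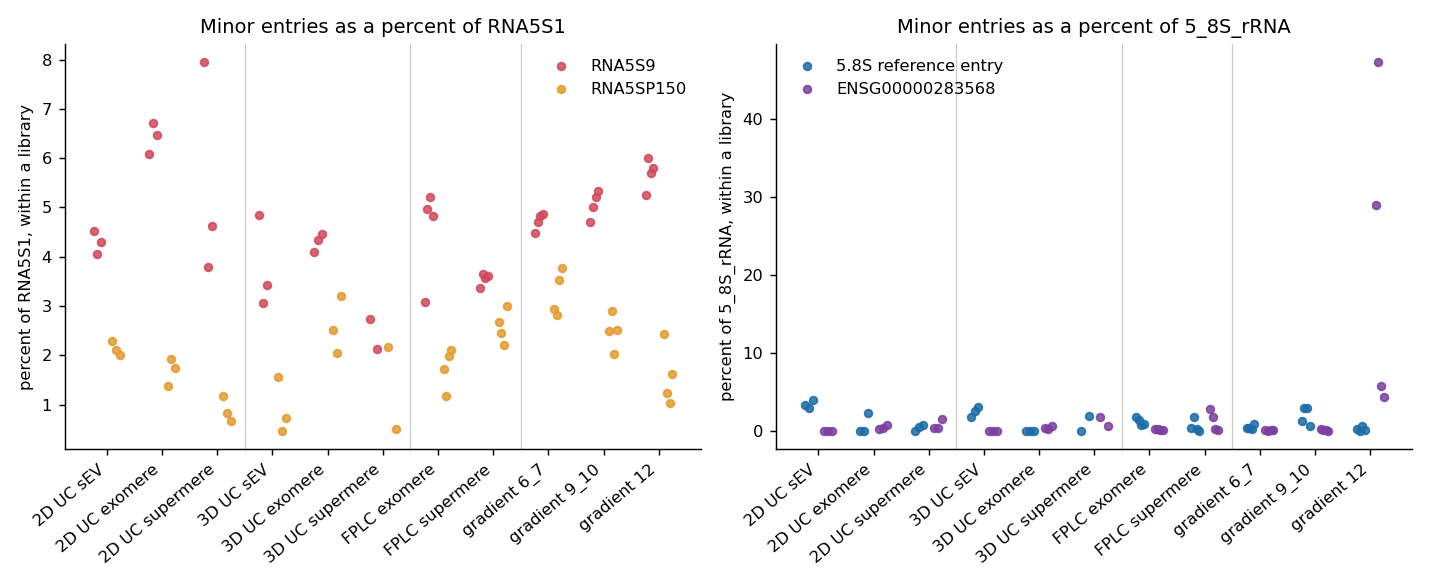
RNA5S9 and RNA5SP150 as a percent of RNA5S1 (left) and the 5.8S reference entry and ENSG00000283568 as a percent of 5_8S_rRNA (right), on linear axes by group, with 1 point for each library. The 5.8S reference entry lies at 0 in all 3 libraries of 3D UC exomeres, and ENSG00000283568 reaches 47.3% in gradient 12.

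The members' part of all rRNA counts differed widely between preparations. In 2D UC sEV they made up 30.4% ± 1.76 of rRNA-class counts (SD, n = 3), against 2.48% ± 0.340 in 2D UC exomeres and 0.735% ± 0.108 in 2D UC supermeres. In 3D UC the means were 10.7% in sEV, 5.61% in exomeres and 2.12% in supermeres. FPLC supermeres had the lowest share, with 0.00523%, 0.0248% and 0.0193% in A to C and 0.602% in D. Their mean of 0.163% ± 0.293 (n = 4) became 0.0164% without D. Counted per base of RNA, 5.8S stood at 13.9, 14.3 and 15.3 times 28S in 2D UC sEV. It also exceeded 28S in all 4 libraries of gradient 9_10 (1.18 to 4.29 times), but in 3D UC sEV the ratio was 0.497 in library A against 2.76 and 2.93 in B and C. In 3D UC exomeres it was 2.16, 1.59 and 0.990. FPLC supermeres A to C had the lowest per-base ratios (0.000763 to 0.00329), while their library D had 0.129, within the range of gradient 12 (0.0698 to 0.168).

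The ratio of 5.8S or 5S to 28S within a library does not depend on library totals or on any scaling, so it was compared between preparations directly. Each ratio takes the lead entry and the 28S entry, as log2 with 0.5 added to each count, and 18 exact permutation tests over libraries, two-sided, were adjusted together by Benjamini-Hochberg. In 2D UC, 3D UC and the gradient, p tests whether the 3 groups differ in any way, by the sum of squares between groups. The difference printed beside such a p describes 1 contrast of the groups and was not tested alone. In 2D UC the log2 ratio of 5.8S to 28S was -1.24, -1.21 and -1.11 in sEV, -5.42, -5.74 and -5.84 in exomeres, and -7.45, -7.57 and -8.00 in supermeres. The 3 fractions did not overlap and differed in the test (exact permutation p = 0.00357, adjusted p = 0.0114, n = 3 each). The difference of the particle pellets from sEV was -5.49 log2 units (44.8-fold lower). For 5S to 28S it was -4.53 log2 units (23.1-fold lower), with the same p over the 3 fractions (exact permutation p = 0.00357, adjusted p = 0.0114).

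In 3D UC the same comparison turned on a single library. The log2 ratio of 5.8S to 28S was -6.05, -3.57 and -3.49 in sEV A to C, -3.93, -4.37 and -5.05 in exomeres, and -6.09 and -6.26 in supermeres B and C. Library sEV A, which had the most 28S (207836 CPM) and the least 5.8S of its group, stood next to the supermeres, and the fractions overlapped. The difference of the particle pellets from sEV was -0.94 log2 units for 5.8S to 28S and -1.38 for 5S to 28S. Neither test over the 3 fractions passed the threshold (exact permutation adjusted p = 0.298 and 0.338). Without sEV A these differences were -1.78 and -2.42, and both tests over the 3 fractions passed (exact permutation adjusted p = 0.0286 and 0.0156).

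FPLC supermeres and gradient pool 12 held much less 5.8S and 5S per 28S than their neighbours. FPLC exomeres had log2 ratios of 5.8S to 28S of -6.46, -5.32, -7.12 and -6.59, and FPLC supermeres had -15.4, -13.3, -14.2 and -7.99. All supermere libraries lay below all exomere libraries, with library D closest to them. The difference was 81.6-fold for 5.8S (exact permutation p = 0.0286, adjusted p = 0.0468) and 57.7-fold for 5S (p = 0.0286, adjusted p = 0.0468), and 0.0286 is the smallest p that 4 against 4 libraries allow. Both calls were lost in the 7 exact tests that each left out 1 library other than supermere D. Without D the difference was -7.93 log2 units for 5.8S and -7.02 for 5S, and both calls held. In the gradient, 5.8S to 28S ran from -8.24 to -3.96 in 6_7, from -4.80 to -2.94 in 9_10 and from -8.88 to -7.61 in 12. Pool 12 lay 12.7-fold below the mean of the others for 5.8S and 40.9-fold below for 5S. The 3 pools differed in the test for 5.8S (exact permutation p = 0.00381, adjusted p = 0.0114) and for 5S (p = 0.000693, adjusted p = 0.0114). Pool 6_7 overlapped pool 12 for 5.8S through its library B alone (-8.24).

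Between methods and cultures the ratios to 28S split. Averaged over exomeres and supermeres, FPLC preparations had 18.9-fold less 5.8S per 28S than 3D UC preparations (exact permutation p = 0.00190, adjusted p = 0.0114). For 5S per 28S this mean was 12.9-fold less (exact permutation p = 0.00952, adjusted p = 0.0190). Both calls were lost without FPLC supermere A, B or C. The gap was wider in supermeres. Log2 5.8S to 28S was -15.4 to -7.99 in FPLC supermeres against -6.26 and -6.09 in UC. In exomeres it was -7.12 to -5.32 against -5.05 to -3.93. Log2 5S to 28S was -15.3 to -9.02 against -6.45 and -6.07 in supermeres, and exomeres overlapped (-8.15 to -5.14 against -5.69 to -5.26). Averaged over the 3 fractions, 3D differed from 2D UC by -0.15 log2 units for 5.8S to 28S (exact permutation adjusted p = 0.826). For 5S to 28S this mean difference was 0.84 (adjusted p = 0.232), and 1.19 without 3D UC sEV A (exact permutation adjusted p = 0.0116). The fractions behind the 5.8S mean of 3D against 2D moved in opposite directions. For 5.8S to 28S, 3D sEV lay below 2D sEV (-6.05 to -3.49 against -1.24 to -1.11). 3D exomeres lay above 2D exomeres (-5.05 to -3.93 against -5.84 to -5.42). 3D supermeres lay above 2D supermeres (-6.26 and -6.09 against -8.00 to -7.45). For 5S to 28S exomeres and supermeres were also higher in 3D, while sEV overlapped. Single fractions were not tested.

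5S and 5.8S did not keep a constant ratio to each other. Per base, the mean over libraries of the ratio of 5S to 5.8S was lowest in 2D UC sEV (0.310) and highest in FPLC supermeres (1.74, with libraries from 0.630 to 3.20), followed by gradient 6_7 (1.47, from 1.31 to 1.63). The libraries of FPLC supermeres and gradient 6_7 overlapped. Taken from group mean levels instead, the ratio was 1.05 in FPLC supermeres and highest in gradient 6_7 (1.47). In 2D UC the log2 ratio of 5S to 5.8S was 0.95 higher in the particle pellets than in sEV (exact permutation test of the 3 fractions, p = 0.00714, adjusted p = 0.0161). Averaged over the 3 fractions, 3D preparations were 0.99 higher than 2D preparations (exact permutation p = 0.00625, adjusted p = 0.0161). 3D lay above 2D in sEV (-0.56 to 0.34 against -2.28 to -1.79) and in supermeres (-0.36 and 0.19 against -1.29 to -0.67). Exomeres overlapped (-1.76 to -0.21 against -1.47 to -1.18). Same-lettered exomere and supermere libraries of the cultures deviated together. With values exchanged only within a letter the call for the mean was lost after adjustment (exact permutation p = 0.0117, adjusted p = 0.0703). That adjusted p is shared with tests of the family that sit at their smallest possible p, so the loss does not measure pairing alone. Calls were likewise lost for the 2D UC fractions, where exomeres and supermeres of a letter deviated together, in all 3 ratios (exact permutation adjusted p = 0.0703 each). Their unadjusted p of 0.0278 is the smallest that exchange within a letter allows in 2D UC, so that loss does not bear on pairing. The difference of gradient 12 from the other pools was -1.69 log2 units (3.23-fold lower), with its library B (-3.02) the lowest of the 37 libraries. The 3 pools differed in the test (exact permutation p = 0.00346, adjusted p = 0.0114). The ratio of 5S to 5.8S missed the threshold in 3D UC fractions (adjusted p = 0.272), between FPLC fractions (adjusted p = 0.666) and between FPLC and 3D UC (adjusted p = 0.338), all in the exact permutation test.

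**Figure D3:**
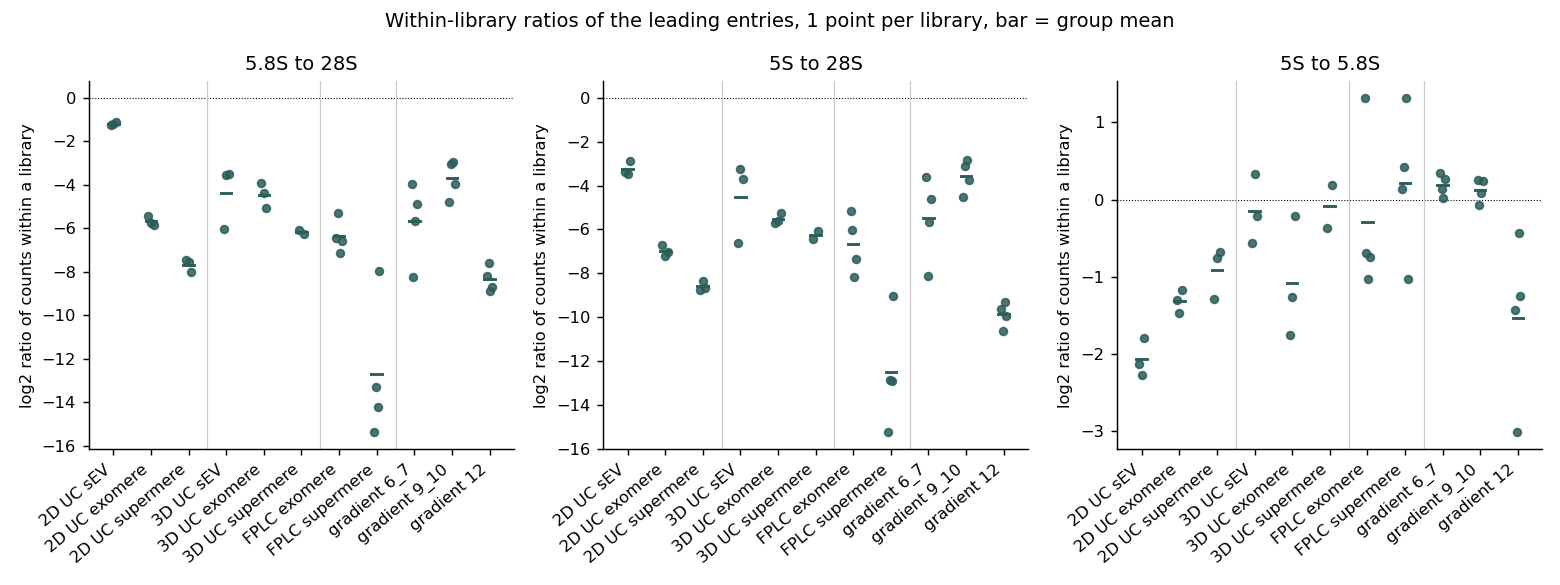
Log2 ratios of 5.8S to 28S, 5S to 28S and 5S to 5.8S in each library (1 point each) on linear axes of log2 values, by group, with group means as bars. FPLC supermeres and gradient 12 lie lowest for both ratios to 28S, 3D UC sEV A lies apart from B and C, and the 5S to 5.8S ratio is lowest in 2D UC sEV and gradient 12.

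Differences between groups were next tested feature by feature with edgeR's quasi-likelihood test over 8979 features, which included all 10 members, and a feature was called at a Benjamini-Hochberg adjusted p below 0.05. Log2 fold changes use TMM scaling, whose factors ran from 0.0670 to 8.99, and therefore can depart from ratios of CPM. Values by library totals are given where members were called. Comparisons that share a group, such as both particle pellets against the same sEV libraries, are not independent of each other. Counts out of 10 members and their medians take similar copies apart. These include ENSG00000283274 and ENSG00000276871, a single measurement in practice, so the members are not independent either.

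In 2D UC, both rRNAs fell sharply from sEV to the particle pellets. 6 of 10 members were lower in exomeres than in sEV and 0 were higher, where 5.99% of all features were called lower. By library totals 5 were lower (3.12% of all features). The members' median log2 fold change was -5.02, against 0.17 over all features. The lead 5.8S entry was 41.3-fold lower in CPM (log2 -6.94 ± 1.01, SE, edgeR adjusted p = 1.11e-09) and RNA5S1 was 25.3-fold lower (log2 -6.17 ± 0.98, edgeR adjusted p = 4.08e-08). The others called were the 5.8S reference entry, RNA5S9, RNA5SP150 and ENSG00000283291. 28S fell less with TMM (log2 -2.41 ± 0.67, edgeR adjusted p = 0.00725) and was not called by library totals (-0.91, adjusted p = 0.430).

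In 2D supermeres against sEV, 7 of 10 members were lower and 0 higher, where 6.43% of all features were called lower, with a members' median of -4.68 against 0.00 over all features. By library totals 5 were lower (4.52% of all features). 5_8S_rRNA was 58.7-fold lower in CPM (log2 -6.60 ± 0.99, edgeR adjusted p = 3.19e-09) and RNA5S1 was 27.4-fold lower (log2 -5.36 ± 0.95, edgeR adjusted p = 8.26e-07). 28S stood at log2 0.03 ± 0.64 in the same comparison (edgeR adjusted p = 1.00). Between 2D supermeres and exomeres 0 of 10 members were called in either direction by edgeR, and 0 had an unadjusted p under 0.05, where 0.0557% of all features were called. DESeq2 called 0 as well.

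In 3D UC the fall from sEV repeated for the leads, with larger spread in sEV. 4 of 10 members were lower in 3D exomeres than in 3D sEV (6.74% of all features called lower), and also 4 by library totals (4.87%), with a members' median of -3.00 against -0.16 over all. 5_8S_rRNA was 14.5-fold lower in CPM (log2 -3.73 ± 0.87, edgeR adjusted p = 0.000953) and RNA5S1 was 29.9-fold lower (log2 -4.85 ± 0.92, edgeR adjusted p = 3.43e-05). RNA5S9 also fell, and the 5.8S reference entry, at 0 counts in exomeres, was at least 2528-fold lower in CPM against 3 counts over the group. RNA5SP150 was 6.86-fold lower in CPM but was not called.

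7 of 10 members were lower in 3D supermeres than in 3D sEV (4.83% of all features called lower), and also 7 by library totals (3.98%), with a members' median of -6.51 against -3.22 over all features. 5_8S_rRNA was 142-fold lower in CPM (log2 -6.52 ± 1.19, edgeR adjusted p = 9.44e-06) and RNA5S1 was 149.8-fold lower (log2 -6.50 ± 1.20, edgeR adjusted p = 1.25e-05). Only 2 supermere libraries stand behind these values, and the count fell to 2 without supermere B and to 4 without supermere C. Against 3D exomeres, 1 of 10 members was higher in 3D supermeres and 0 lower (0.0891% of all features called higher). It was the 5.8S reference entry, with 6 counts in supermeres and 0 in exomeres (edgeR adjusted p = 0.0497), and the call was lost with a replicate block (edgeR adjusted p = 0.133) and by library totals. 5_8S_rRNA was 9.80-fold lower in CPM in supermeres without overlap and was not called (edgeR adjusted p = 0.237).

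**Figure D4:**
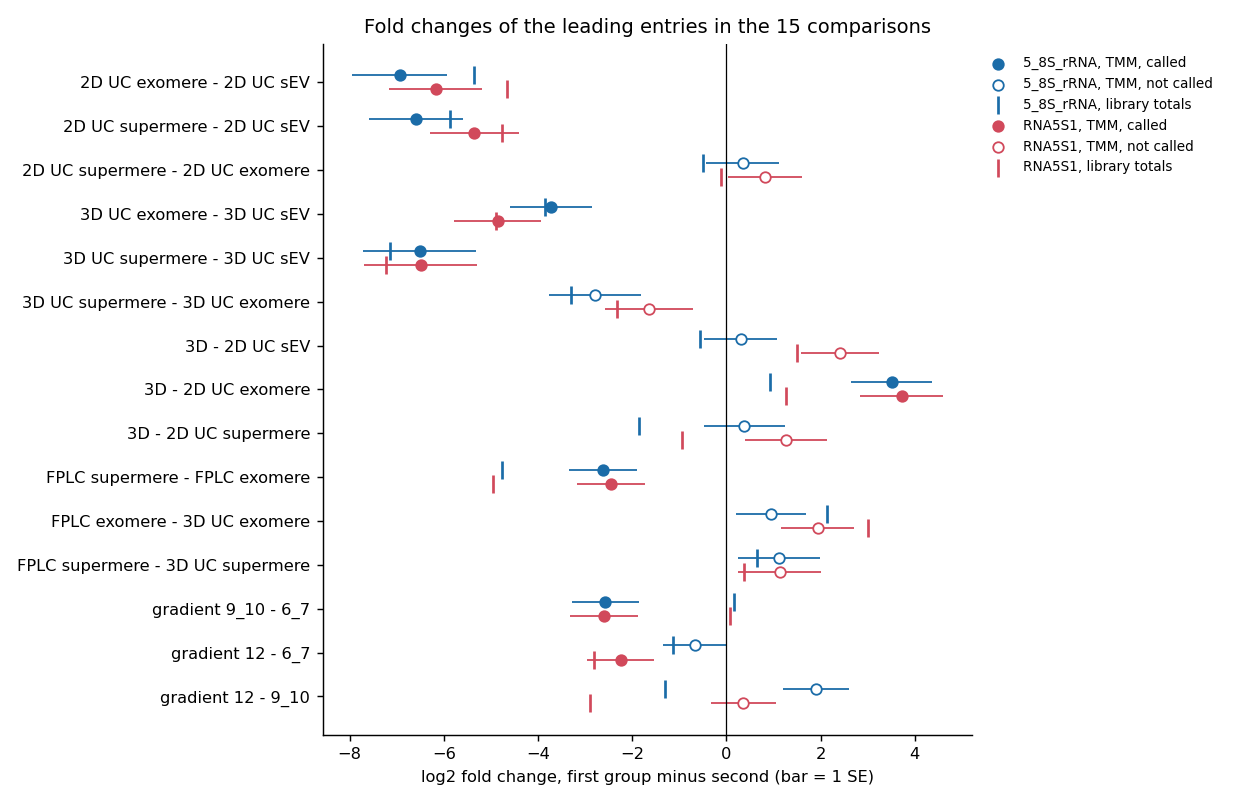
Log2 fold changes of the lead 5.8S entry and RNA5S1 in the 15 comparisons, from edgeR with TMM scaling (circles, filled where called, with 1 SE) and with library totals (upright ticks). The falls from sEV to the UC particle pellets and from FPLC exomeres to supermeres have the same sign in both scalings for 5S and 5.8S, while gradient 9_10 against 6_7 and 12 against 9_10 change sign.

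Between 3D and 2D preparations, which differed in medium pools and volumes as well as in culture, few members changed in a way that both scalings share. Between 3D and 2D sEV 0 of 10 members were called by edgeR (1.96% of all features called in either direction), and 3 had an unadjusted p under 0.05, among them RNA5S1, which was 2.84-fold higher in CPM in 3D (log2 2.40 ± 0.83, edgeR adjusted p = 0.133). DESeq2 called 0 members there, while an edgeR fit of only the groups compared called 4 higher. 28S rose in the same comparison (log2 3.29 ± 0.70, edgeR adjusted p = 0.000470). Between 3D and 2D supermeres 0 of 10 were called (2.03% of all features), and 1 had an unadjusted p under 0.05.

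Between 3D and 2D exomeres, 8 of 10 members were called higher in 3D (3.44% of all features) and 1 lower (1.94%) with TMM, and by library totals 0 were called higher and 1 lower, where 48.6% of all features were called lower. The median over all features was -1.77 with TMM and -4.27 by library totals, and the members' median was 3.61 with TMM. In CPM the lead 5.8S entry was 1.91-fold higher in 3D (log2 3.51 ± 0.86 with TMM, edgeR adjusted p = 0.00424, and 0.93 by library totals, adjusted p = 0.252), and RNA5S1 was 2.40-fold higher (3.72 ± 0.88 with TMM, edgeR adjusted p = 0.00249, and 1.27 by library totals, adjusted p = 0.132). The 2D and 3D libraries did not overlap for either lead. Each exomere library mattered: the count of 9 fell to 3 without 2D A or 2D B, to 5 without 2D C or 3D B, and to 6 without 3D A or 3D C. The member called lower in both scalings was the 5.8S reference entry, whose bound of at least 19.3-fold rests on the 75 counts of 2D exomere C. Same-lettered exomere libraries of the cultures deviated together, and with a replicate block 8 members were called higher and 0 lower, the 5.8S reference entry losing its call (edgeR adjusted p = 0.0507).

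From FPLC exomeres to FPLC supermeres the lead 5S and 5.8S entries fell while 28S rose. 4 of 10 members were lower in FPLC supermeres than in FPLC exomeres (4.59% of all features called lower), and by library totals 8 were lower (48.0%). The members' median was -1.84, against -1.61 over all features, and -4.13 against -3.77 by library totals. It thus lay near the median of all features in both scalings. 5_8S_rRNA was 27.1-fold lower in CPM (log2 -2.62 ± 0.72, edgeR adjusted p = 0.00795), RNA5S1 was 30.9-fold lower (log2 -2.45 ± 0.72, edgeR adjusted p = 0.0171), and RNA5S9 and the 5.8S reference entry were the others called. 28S rose between the same groups with TMM (log2 4.64 ± 0.64, edgeR adjusted p = 1.72e-09), its libraries overlapping through supermere D (74876 CPM against 639005 to 906017 CPM in the other supermeres). 18S was not called with TMM (log2 -0.66 ± 0.63, edgeR adjusted p = 0.509) and was lower by library totals (-3.05, edgeR adjusted p = 3.0e-05). Leaving out supermere C left 0 members called, and leaving out exomere A, supermere A or supermere D left 2. RNA5S1 lost its call in each of these 4 fits.

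The method also mattered for exomeres. FPLC exomeres had 1 of 10 members higher than 3D UC exomeres with TMM (3.75% of all features called higher) and 4 by library totals (10.6%). The entry called in both scalings was the 5.8S reference entry, present in all 4 FPLC libraries (21.5 to 46.7 CPM) and at 0 counts in all 3 UC libraries, at least 326-fold higher. This need not be a change in 5.8S rRNA, since how reads were divided between that entry and the lead is not known. RNA5S1 was 8.07-fold higher in CPM (log2 1.94 ± 0.78, edgeR adjusted p = 0.0990, and by library totals 3.01, adjusted p = 0.00537), and the lead 5.8S was 4.38-fold higher (log2 0.95 ± 0.74, edgeR adjusted p = 0.413, and by library totals 2.13, adjusted p = 0.0389). Between FPLC and 3D UC supermeres 0 of 10 members were called by edgeR (0.212% of all features), 3 had an unadjusted p under 0.05 and DESeq2 called 0. 28S was 8.77 ± 1.07 log2 units higher in FPLC supermeres (edgeR adjusted p = 3.85e-12).

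In the gradient, 9_10 and 6_7 could not be ordered for the leads. With TMM 4 of 10 members were lower in 9_10 (4.40% of all features called lower), whereas by library totals 1 was higher (42.3% of all features called higher) and the leads changed sign. The lead 5.8S entry stood at log2 -2.58 ± 0.71 with TMM (edgeR adjusted p = 0.0104) and at 0.16 by library totals, and RNA5S1 at -2.61 ± 0.72 (edgeR adjusted p = 0.0104) and 0.08. The median over all features was 2.71 with TMM and 5.32 by library totals. The CPM means differed by 1.11-fold for 5.8S and 1.06-fold for 5S, less than the spread between libraries. The TMM count fell to 0 without 9_10 A or 9_10 B and to 2 without 6_7 D.

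Gradient 12 stood apart from the other pools in a single 5.8S-like entry. ENSG00000283568 stood at 357, 1200, 78.2 and 41.0 CPM in gradient 12 and at no more than 10.2 CPM in any of the other 33 libraries analysed. It amounted to 4.35% to 47.3% of the lead 5.8S count in gradient 12, against at most 0.285% in 9_10 and 0.106% in 6_7. Against 6_7, 1 of 10 members was higher (2.05% of all features called higher) and 2 were lower (5.30% called lower), as by library totals (1.11% higher and 5.39% lower), with a members' median of -2.04 against 0.00 over all. ENSG00000283568 was 173-fold higher in CPM (log2 7.98 ± 1.11, edgeR adjusted p = 2.37e-10). RNA5S1 was 7.03-fold lower (log2 -2.24 ± 0.71, edgeR adjusted p = 0.0256) and RNA5SP150 was 16.0-fold lower (log2 -3.43 ± 0.93, edgeR adjusted p = 0.00513). The lead 5.8S entry was 2.20-fold lower in CPM and was not called (log2 -0.68 ± 0.68, edgeR adjusted p = 0.776). RNA5S1 lost its call in 5 of the 8 fits that left out 1 library (12 A, B or D, 6_7 C or D). With DESeq2's size factors in edgeR the fitted values turned to 0.08 for RNA5S1 and 1.93 for the lead 5.8S, and DESeq2 called 3 members higher and 0 lower.

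Against 9_10, the entry ENSG00000283568 was the 1 of 10 members called in gradient 12 with TMM (2.47% of all features called higher). It was 92.4-fold higher in CPM (log2 9.83 ± 1.25, edgeR adjusted p = 9.63e-12), on 5.7 counts in all of 9_10. By library totals it stayed higher as the 1 member (0.646% of all features called higher), and 6 members were lower (43.5% called lower), RNA5S1 among them at log2 -2.90, while with TMM RNA5S1 stood at 0.36 ± 0.68. The median over all features was -1.75 with TMM and -5.19 by library totals. 18S was also high in the gradient 12 libraries where ENSG00000283568 was high: 80132, 136004, 25681 and 12021 CPM in A to D, the same order as for that entry. Whether this bears on its counts was not tested.

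**Figure D5:**
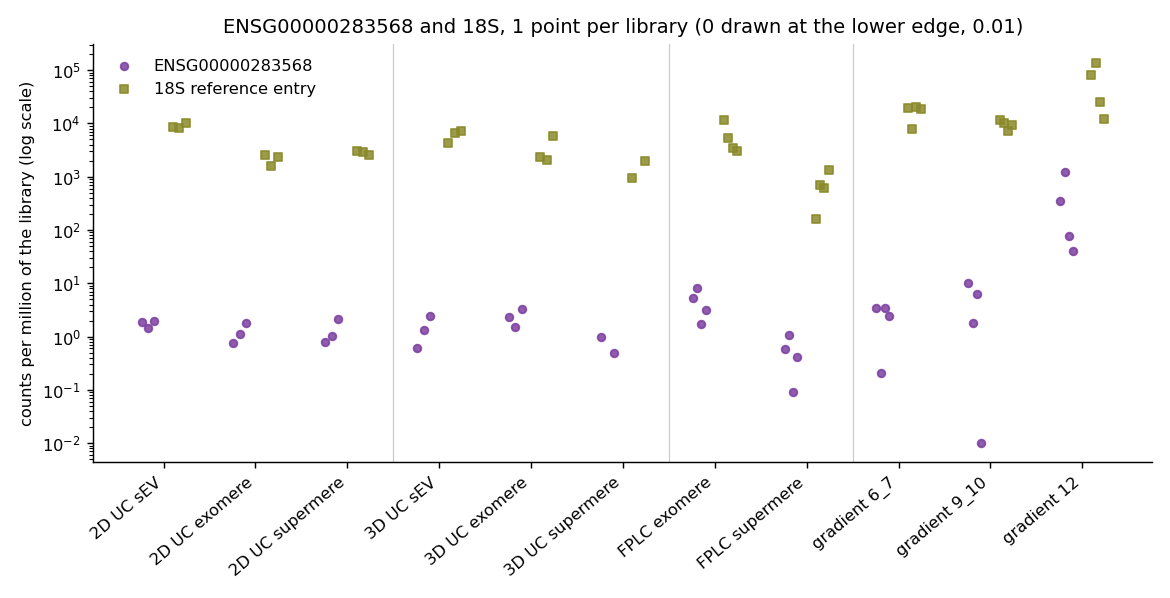
ENSG00000283568 (circles) and the 18S entry (squares) in the 37 libraries, in CPM on a log axis by group, with a library at 0 drawn at 0.01. All 4 libraries of gradient 12 lie above every other library for ENSG00000283568, from 41.0 to 1200 CPM.

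Differences between settings in the size of a change were tested as interactions in edgeR, 40 in all for the members. 1 passed, the 5.8S reference entry, whose change from exomere to supermere differed by -10.6 log2 units between FPLC and 3D UC (edgeR adjusted p = 0.000401). It had 0 counts in 3D UC exomeres, so the fitted size depends on the prior count of the fit. For the lead 5.8S, the change from sEV to exomere was 3.20 ± 1.13 log2 units smaller in 3D than in 2D and missed the threshold (edgeR adjusted p = 0.184).

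RNAs that work on the precursor of 5.8S were called lower in 3D particle pellets than in sEV for most of those tested, and for 5 and 8 of 14 in 2D exomeres and supermeres. The shares of all features called are those given above for each comparison. Of 15 listed small nucleolar and related RNAs that act on the pre-rRNA, 14 were tested. The list holds several copies of the same RNA, such as SNORD3A and SNORD3C, which can share reads. Its counts and medians therefore do not stand for that many separate RNAs. By edgeR 5 were lower and 0 higher in 2D exomeres than in sEV (1 and 0 by library totals), 8 and 0 in 2D supermeres (4 and 0), 11 and 0 in 3D exomeres (9 and 0), and 13 and 0 in 3D supermeres (11 and 0). Their median log2 fold changes in these comparisons were -2.46, -3.03, -5.33 and -9.27, against 0.17, 0.00, -0.16 and -3.22 over all features. SNORD3A, a U3 RNA that guides the early cuts of the precursor, fell from 1373 CPM in 3D sEV to 32.7 CPM in 3D exomeres (log2 -5.33 ± 1.01, edgeR adjusted p = 3.43e-05), and its near-identical copy SNORD3C gave nearly the same values. In 2D it stood at 188 CPM in sEV, 123 CPM in exomeres (edgeR adjusted p = 0.206) and 46.8 CPM in supermeres (edgeR adjusted p = 0.0573), and was not called. In FPLC supermeres against exomeres 9 of 14 were lower and 0 higher (13 and 0 by library totals, where 48.0% of all features were lower), SNORD3A among them (21.1 against 3504 CPM, edgeR adjusted p = 5.11e-06). In gradient 12, 4 of 14 were higher than in 6_7 and 0 lower (3 and 0 by library totals). Against 9_10, 7 were higher and 0 lower with TMM but 1 higher and 2 lower by library totals, the median turning from 3.01 to -0.24.

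Guides of 5.8S modification gave fewer counts. 4 of the 5 listed guide RNAs were tested, and 2 were lower in 2D exomeres than in sEV, 3 in 2D supermeres, 3 in 3D exomeres, 3 in 3D supermeres and 3 in FPLC supermeres against exomeres, with 0 higher in each. By library totals the counts lower were 2, 2, 1, 2 and 4 in the same order, again with 0 higher, where 48.0% of all features were lower in the last of these comparisons. SNORA69, a pseudouridylation guide, stood at 4.77 CPM in 2D sEV and 0.0612 CPM in 2D exomeres (log2 -6.96 ± 1.48, edgeR adjusted p = 9.63e-05), and at 40.7 CPM in 3D sEV and 0.374 CPM in 3D exomeres (edgeR adjusted p = 0.000406). SNORD96A, a methylation guide, fell from 16.1 to 0.934 CPM in the latter comparison (edgeR adjusted p = 0.0416).

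Other RNA polymerase III transcripts did not all follow 5S. Of 7 tested, 6 were lower and 0 higher in 2D exomeres than in sEV, and likewise in 2D supermeres (3 and 5 lower by library totals, 0 higher). In 3D, 4 were lower and 1 higher in exomeres, and 5 lower and 1 higher in supermeres, with the same counts by library totals (0.156% and 0.334% of all features were called higher with TMM). In FPLC supermeres against exomeres 2 were higher (1.51% of all features) and 2 lower with TMM, and 0 higher and 3 lower by library totals. The Y RNAs were those that rose in 3D: RNY4 was higher in 3D exomeres (126507 against 24039 CPM in sEV, log2 2.57 ± 0.74, edgeR adjusted p = 0.0117) and RNY1 in 3D supermeres (486376 against 91043 CPM, log2 2.99 ± 0.76, edgeR adjusted p = 0.00371). In gradient 12 against 6_7, 2 of the 7 were higher and 5 lower in both scalings, RNY1 (149.9 against 4938 CPM) and RNY4 (166 against 7551 CPM) being among the lower. Of the 14 other 5S copies 3 were tested, and 0 were called in any of the 15 comparisons in either scaling.

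The features whose levels most resembled those of the leads were tRNAs, miRNAs and other small RNAs. Likeness was Spearman's correlation of log2(CPM + 1) over the 37 libraries among 812 features outside the members, with 1 feature named per family, and it is a description, since all points share library depth and groups. For RNA5S1 the nearest were tRNA-Glu-TTC-1-1 (rho = 0.908), tRNA-Val-CAC-1-1 (0.907) and the long non-coding RNA ENSG00000286171 (0.897). For the lead 5.8S entry they were an entry named Y_RNA (rho = 0.899), tRNA-Lys-CTT-10-1 (0.896) and hsa-miR-26a-5p (0.895). The leads had a rho of 0.931 with each other. Their rho with 18S was 0.724 for RNA5S1 and 0.695 for the lead 5.8S, and with 28S it was 0.084 and 0.030.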

How the data were processed

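For 38 libraries the authors deposited 1 table of expected counts by feature, unscaled as its totals show: 6.71% of the values are not whole (tolerance 1e-06), and they were rounded before tests, while CPM and folds in CPM use the values as deposited. The submitters' processing notes name cutadapt 4.5, FastQC 0.12.1, Bowtie 1.3.1 and GRCh38.p13. The counting tool and annotation are not given in the sources used here, so how reads of identical rRNA copies were shared out is not known. Unscaled totals mean that CPM moves with every abundant RNA of a library. Columns of samples outside the series numbered 0.

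3D UC supermere A was left out by a minimum library total of 1000 counts, because 46 counts give no level for any member. The others entered 1 fit of 11 group means in edgeR 4.0.16 (R 4.3.3, glmQLFit and glmQLFTest, robust, TMM, filterByExpr with a minimum count of 10), with 26 residual degrees of freedom and a common biological coefficient of variation of 1.20. SE is the log2 fold change divided by the root of F. All tests were two-sided. The members and lists were chosen with earlier results of these data known. Every member was accounted for, those above 10 CPM in some group with values. The 28S and 18S comparators are the entries of those names, and list genes named are the 2 with the highest mean CPM of each list. Bounds for groups at 0 counts use 3 counts over the group's total and reflect counting error alone, because reads copied by PCR and carrying no molecular identifier are not separate molecules. Sequences were read from the GENCODE transcripts (GRCh38) by the table's gene identifiers (those of the 5S entries are not reported here), and 27 of 27 loci had the same coordinates in the GENCODE annotation at hand.

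Ratios were tested in Python 3.11.15 by exact permutation. Both test steps were tested on simulated data first. Library letters were checked as pairs by correlating deviations from group means. Every pair exceeded 0.1 for 2D exomeres with 2D supermeres (3 of 3, 0.522 to 0.847), 3D with 2D exomeres (3 of 3, 0.131 to 0.436) and, with only 2 pairs each, 3D with 2D supermeres and 3D exomeres with 3D supermeres, but not for the other 11 pairs of groups. Alternatives were library totals, DESeq2's size factors, no filter, a stricter filter, a replicate block, only the groups compared, DESeq2 1.42.0, all 38 libraries, another added count or sums over entries in ratios, TMM-scaled CPM or shares of rRNA-class counts for levels, and leaving out each library.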

Additional observations from a re-analysis of the deposited data

Results flagged for a closer look

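In each group of 4 libraries the highest and lowest values were compared with the rest by Dixon's criterion, which chance meets in about 1 of 20 groups. 11 of 60 such groups of member levels and ratios met it, with the near-copies ENSG00000276871 and ENSG00000283274 counted apart. FPLC supermere D stood above its group for 4 entries: the lead 5.8S at 294 CPM against 21.0 to 63.9, ENSG00000276871 and its near-copy ENSG00000283274 at 2.03 CPM each against 0.128 to 0.368, and ENSG00000283291 at 8.52 CPM against 0.857 to 1.43. The same library held 74876 CPM of 28S against 639005 to 906017 CPM in the other 3, and the part of this in its 5.8S levels was not tested. The near-copies had 10.2 counts each over all FPLC supermeres. FPLC supermere B held 1.10 CPM of the 5.8S reference entry against at most 0.0920, on 8 counts over the group. FPLC exomere A stood above its group for RNA5SP150 (90.2 CPM against 24.4 to 35.1) and for the log2 ratio of 5S to 5.8S (1.32 against -1.03 to -0.69).

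In the gradient, 6_7 B was low for RNA5S1 (1986 CPM against 4211 to 4645), and the same library held the most 28S of its group (546756 CPM). Gradient 12 A was high for ENSG00000276871 and ENSG00000283274 (2.15 CPM each against 0.411 to 0.705), on 5.2 counts each over the group. Library 12 C was high for RNA5S9 (57.2 CPM against 18.8 to 24.0). The change of the 5.8S reference entry from exomere to supermere differed between FPLC and 3D UC by -10.6 log2 units (edgeR adjusted p = 0.000401), with 0 counts in all 3D UC exomeres.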

How the results depend on the processing

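With library totals in place of TMM, counts of members called became 0 in 3D supermeres against exomeres, 1 in 3D against 2D exomeres, 8 in FPLC supermeres against exomeres, 4 in FPLC against 3D UC exomeres, 1 in gradient 9_10 against 6_7 and 7 in 12 against 9_10. The sign then turned for ENSG00000283568 in FPLC supermeres against exomeres (-2.90), in 9_10 against 6_7 for RNA5S1 (0.0835), the lead 5.8S (0.16) and the 5.8S reference entry (2.23), and in 12 against 9_10 for RNA5S1 (-2.90). With DESeq2's size factors in edgeR the counts were 4 in 3D supermeres against sEV, 5 in 3D against 2D exomeres, 2 in FPLC against 3D UC exomeres, 0 in 9_10 against 6_7 and 2 in 12 against 9_10, and in 12 against 6_7 RNA5S1 turned to 0.0796 and the lead 5.8S to 1.93. DESeq2 itself gave 3 in 3D supermeres against exomeres, 4 in FPLC against 3D UC exomeres, 0 in 9_10 against 6_7 and 3 in 12 against 9_10, with 0.0796 and 1.93 for the same leads in 12 against 6_7. With only the groups compared in the fit, the counts were 0 in 3D supermeres against exomeres, 4 (all higher) in 3D against 2D sEV, 1 in 9_10 against 6_7 and 3 in 12 against 9_10. The values of RNA5S1, the lead 5.8S and the 5.8S reference entry in 9_10 against 6_7 then were 0.0196, 0.0570 and 2.08, and the lead 5.8S in 12 against 6_7 was 1.41. Without a filter the counts were 0 in 3D supermeres against exomeres, 1 in 3D against 2D exomeres, 1 in FPLC supermeres against exomeres, 0 in 9_10 against 6_7 and 1 in 12 against 6_7. With the stricter filter they were 0 in 3D supermeres against exomeres and 2 in 12 against 9_10. The causes were not tested.

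With a replicate block on the letters, the count in 3D supermeres against exomeres was 0, and the counts of the other 14 comparisons stayed within 1.5 times. The 11 ratio tests past the threshold lost the call, while their differences kept their size. These differences were -5.49, -3.66, -6.35 and -4.24 for 5.8S to 28S in 2D UC, the gradient, FPLC and FPLC against UC, -4.53, -5.35, -5.85 and -3.69 for 5S to 28S in the same order, and 0.95, -1.69 and 0.99 for 5S to 5.8S in 2D UC, the gradient and 3D against 2D (adjusted p = 0.0703 to 0.205, exact permutation with as few as 16 assignments). The smallest unadjusted p that the blocked exact permutation allows is 0.125 in FPLC (16 assignments) and 0.0278 in 2D UC (216 assignments). The lost calls there had exactly these values, so they do not bear on pairing. For 5S to 5.8S in 3D against 2D the blocked p was 0.0117 (exact permutation), and its adjusted p of 0.0703 was shared with such tests. The letters gave a sign of pairing in every pair for 4 of the 15 pairs of groups compared, 2D exomeres with 2D supermeres, 3D with 2D exomeres and, with 2 pairs each, 3D with 2D supermeres and 3D exomeres with 3D supermeres. The 149.8-fold range of RNA5S1 over groups became 382-fold with TMM-scaled CPM.

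Leaving out each library in turn, called counts ran from 5 to 6 and 5 to 7 in 2D exomeres and supermeres against sEV, 4 to 4 and 2 to 7 in 3D, 0 to 1 in 3D supermeres against exomeres, 3 to 6 in 3D against 2D exomeres, 0 to 4 in FPLC supermeres against exomeres, 1 to 1 in FPLC against 3D UC exomeres, 0 to 4, 2 to 3 and 1 to 2 in 9_10 against 6_7, 12 against 6_7 and 12 against 9_10, and 0 to 0 in the other 4. Differences in log2 5.8S to 28S ran from -5.55 to -5.40 in 2D UC, -1.78 to -0.50 in 3D UC, -4.09 to -3.37 in the gradient, -7.93 to -5.46 in FPLC, -0.30 to 0.12 for 3D against 2D and -5.03 to -3.79 for FPLC against UC. Those in 5S to 28S ran from -4.65 to -4.36, -2.42 to -0.74, -5.79 to -5.04, -7.02 to -4.94, 0.63 to 1.19 and -4.27 to -3.23, and those in 5S to 5.8S from 0.85 to 1.09, -0.65 to -0.20, -2.06 to -1.20, 0.13 to 1.03, 0.85 to 1.11 and 0.28 to 0.76, in the same order. The range over groups ran from 182-fold to 349-fold for the lead 5.8S and from 90.6-fold to 228-fold for RNA5S1. The fitted change of the 5.8S reference entry between 3D and 2D exomeres ran from -6.31 to 0.00, the latter without 2D exomere C.

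Depth limits gradient 9_10 most, where 3 counts over the group equal 3.45 CPM, and 3D UC supermeres, with 2 libraries. The tests of FPLC ratios to 28S lost their call when any 1 of the 8 libraries other than supermere D was left out.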
